A study of Homo sapiens with 6 samples.

Results

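Complexes II to V of the respiratory chain, together with the electron carrier cytochrome c, were described through their nuclear genes in BT-549 cells, a cell line from a human breast cancer of the triple-negative type. Genes were chosen by symbol: SDHA, SDHB, SDHC, SDHD, CYC1, CYCS, and every symbol beginning with UQCR, ATP5, COX4, COX5, COX6, COX7 or COX8, with antisense genes and pseudogenes left out. The rule found 47 symbols among the 19792 genes of the table. The pseudogene UQCRBP1 was removed, which left 46 genes. This set of symbols was proposed with values of the comparison of DOX with vehicle already known. Those values are not used here, and the levels given below are a description with no test.

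All 6 libraries came from BT-549/tet-WDR5shRNA cells, which carry a single WDR5 shRNA under a tetracycline-inducible promoter and were selected with puromycin. WDR5 is a scaffold subunit of the complexes that methylate histone H3 at lysine 4. The cells were treated with vehicle (0.1% DMSO, 3 cultures) or with 500 ng/ml doxycycline (DOX, 3 cultures) for 7 days, and stranded poly(A) libraries were sequenced. Since each library carries the same inducible shRNA, an effect of DOX itself and an effect of the shRNA cannot be told apart in this design.

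The quantity reported is the authors' mean normalized count, which is 1 value per gene over vehicle and DOX libraries together. It has no SD, and no difference between the groups was computed here. The depth of each library is unknown. WDR5 itself had an authors' mean of 1143 normalized counts, a pooled value that checks no label. Of 5 mesenchymal markers all were high, from 4093 (CDH2) to 47782 (VIM), and ESR1 was at 0.790. Of 5 epithelial markers 4 were also at 10 or more, with KRT18 at 435, CDH1 at 59.6, KRT8 at 57.3 and KRT19 at 17.7, and EPCAM was at 1.30. Of the 3 receptor genes that define the triple-negative type, ERBB2 was the only one above 10, at 1221. The endothelial markers reached at most 2.86, the leukocyte gene PTPRC was at 44.7 and CD68, which is also expressed outside leukocytes, was at 1813.

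Oxidative phosphorylation moves electrons from reduced substrates to oxygen at the inner mitochondrial membrane. Complex II oxidises succinate and feeds ubiquinone, complex III passes electrons from ubiquinol to cytochrome c, and complex IV hands them to oxygen. Complexes III and IV pump protons, and complex V, the ATP synthase, uses the returning protons to make ATP. Complexes III, IV and V also hold subunits encoded in mitochondrial DNA, which are not analysed here.

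Nearly all genes of complexes II to V were expressed. Of the 46 genes, 42 reached 10 normalized counts, the minimum used here for expression, compared with 78.2% of the 15552 protein-coding genes of the table. Among those 42, the median was 2012 normalized counts, and 37 of the 46 genes lay above 677, the median of all genes at 10 or more, with no division by length. The 90th percentile of all genes was exceeded by 11 of them. Summed over the 46 genes, the level was 120938, or 0.456% of the total over all genes. Of that sum complex V (17 genes) held 38.3%, complex III (10) 22.6%, complex IV (14) 22.4%, cytochrome c (1) 8.51% and complex II (4) 8.26%. These shares were not divided by length or by the number of genes. The 4 genes below 10 were ATP5E (7.99), ATP5L2 (3.79), COX6B2 (2.81) and COX6A2 (0.545).

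**Figure D1:**
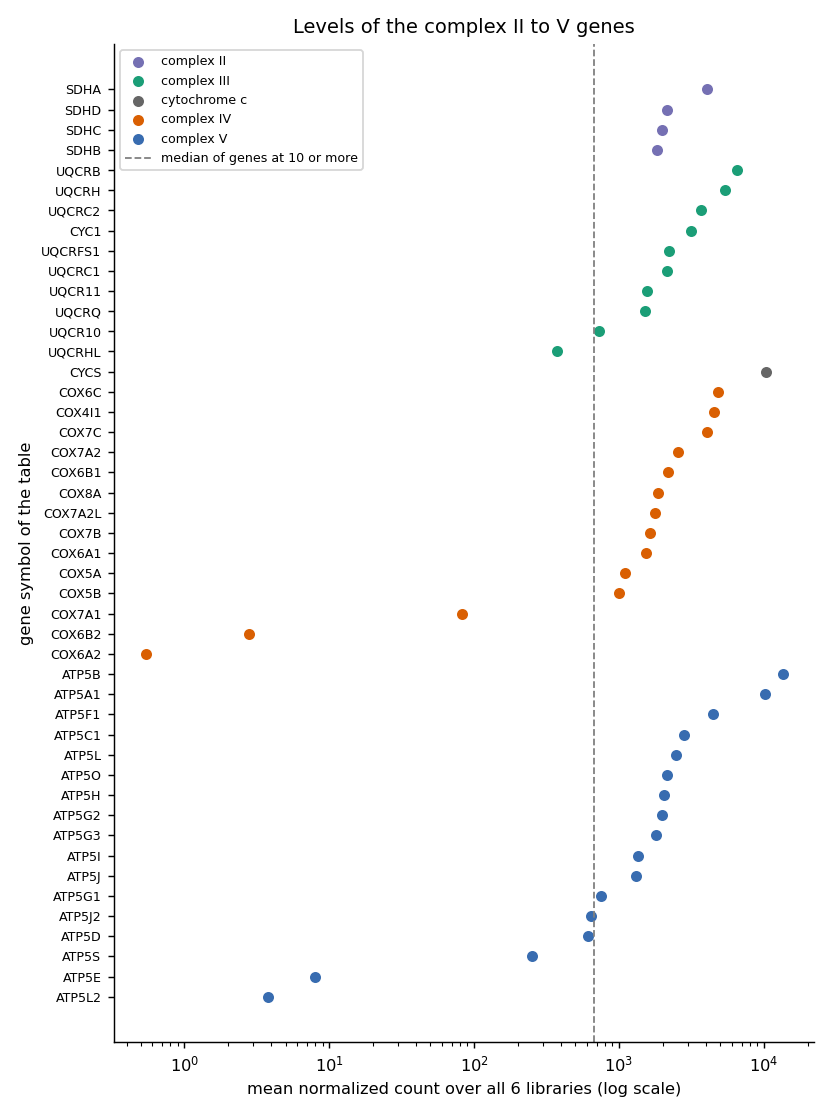
Mean normalized count over all 6 libraries (horizontal log axis) of each of the 46 genes, grouped and coloured by complex. Each point is the authors' pooled mean, so no error bar can be drawn, and the dashed line at 677 is the median of all genes at 10 or more. The 4 genes below 10 belong to complexes IV and V.

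Complex II consists of 4 subunits, all of them nuclear. SDHA, the flavoprotein that oxidises succinate, had 4067 normalized counts. SDHB, the iron-sulfur subunit, had 1821. The membrane anchors SDHC and SDHD had 1963 and 2136. A longer transcript yields more reads, so levels of different genes were compared per kb of transcript. Per kb of the longest annotated transcript, the 4 subunits lay close to each other, from 1355 (SDHA) to 1595 (SDHD). Per kb of coding sequence they ranged from 2041 (SDHA) to 4478 (SDHD). On both scales SDHA was the lowest, although its level before division by length was the highest of the 4. Per kb of the MANE Select transcript, the transcript chosen jointly by RefSeq and Ensembl/GENCODE to stand for a gene, SDHC (1501) and SDHA (1510) were the lowest and nearly equal.

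In complex III, the electron-carrying subunits CYC1 (cytochrome c1) and UQCRFS1 (the Rieske iron-sulfur protein) had 3157 and 2223 normalized counts. The core subunits UQCRC1 and UQCRC2 had 2149 and 3687. Among the small subunits, which carry no redox centre, UQCRB (6507) and UQCRH (5410) were the highest before division by length, followed by UQCR11 (1569), UQCRQ (1509) and UQCR10 (731). UQCRHL, an intronless copy of UQCRH, had 375. CYCS, the soluble carrier between complexes III and IV, had 10290 normalized counts, at the 97.9th percentile of all genes.

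The place of UQCRB and CYCS depended on the length used. UQCRB had 19542 normalized counts per kb of coding sequence, near the 19817 of UQCRH. Per kb of the longest transcript it had 769, against 7875 for UQCRH. Likewise CYCS had 32668 per kb of coding sequence and 1894 per kb of the longest transcript. Both have long annotated 3' untranslated regions, and which transcript ends the cells used was not analysed here.

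Complex IV was represented by 14 genes. COX4I1 and COX5A, the nuclear subunits that join early in assembly, had 4529 and 1093 normalized counts. COX6C (4826), COX7C (4056), COX8A (1853), COX7B (1634) and COX5B (998) join around the mitochondrially encoded MT-CO2. COX6A1 (1524), COX6B1 (2159) and COX7A2 (2530) join around MT-CO3. COX7A2L, which ties complex III to complex IV in supercomplexes, had 1780.

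Several complex IV subunits exist as paired isoforms, of which the forms known from heart and skeletal muscle or testis were the minor ones in these cells. COX6A2, the muscle form, was at 0.545 normalized counts against 1524 for COX6A1, and made up 0.0736% of the pair per kb of the longest transcript. COX6B2, the testis form, was at 2.81 against 2159 for COX6B1, or 0.0490% of the pair. COX7A1, the muscle form, was at 82.4 against 2530 for COX7A2, or 6.03% of the pair. These shares ranged from 0.0357% to 0.0736% for COX6A2, from 0.0405% to 0.130% for COX6B2 and from 3.16% to 6.03% for COX7A1 over the 4 ways of treating length. In each pair the ubiquitous form was therefore the higher one on every scale, and of the muscle forms only COX7A1 was above 10. COX4I2, COX7B2 and COX8C are not analysed here.

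**Figure D2:**
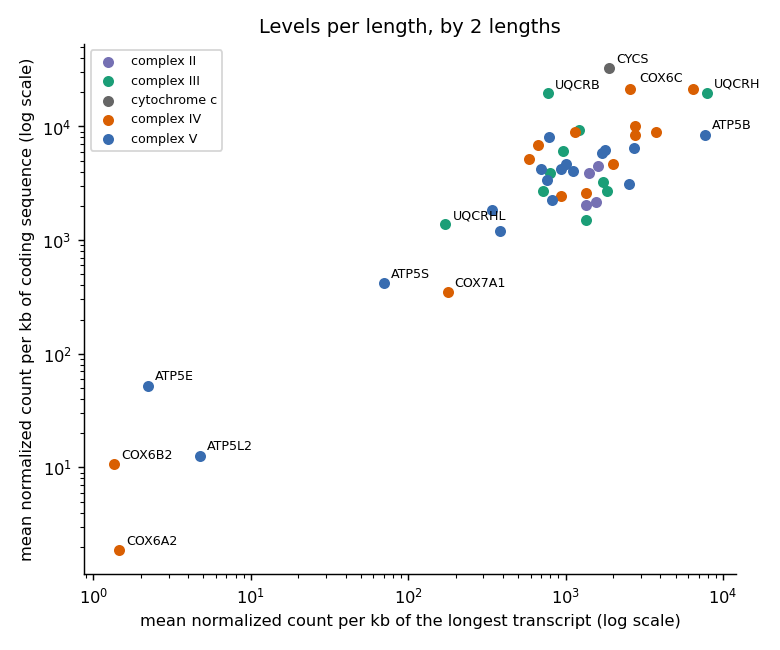
Mean normalized count per kb of the longest annotated transcript (horizontal log axis) and per kb of coding sequence (vertical log axis) for each of the 46 genes, coloured by complex. ATP5E, ATP5L2, COX6A2 and COX6B2 are set apart at the lower left on both axes, whereas UQCRB and CYCS change place between the axes.

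Complex V was represented by 17 genes. In the catalytic F1 part, ATP5B (the beta subunit, which carries the catalytic sites) had 13433 normalized counts, the highest of all 46 genes before division by length, and ATP5A1 (alpha) had 10210. ATP5C1 (gamma, the central shaft) had 2800 and ATP5D (delta) 608. The epsilon subunit, ATP5E, had 7.99. The F1 part holds several alpha and beta subunits for each gamma, delta and epsilon subunit. Per kb of coding sequence, beta stood at 8464, alpha at 6154, gamma at 3132, delta at 1207 and epsilon at 52.2. The order depended on the length used. Per kb of the longest transcript, beta stood at 7636.5, gamma at 2543, alpha at 1772, delta at 383 and epsilon at 2.21. Gamma was above alpha per kb of the MANE Select transcript as well.

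The c ring, which rotates as protons pass, is encoded by the 3 genes ATP5G1, ATP5G2 and ATP5G3, whose mature products are identical. They had 755, 1991 and 1810 normalized counts. ATP5G2 held the largest share of their sum under each treatment of length, 49.2% per kb of the longest transcript, 62.8% per kb of the MANE Select transcript and 43.6% per kb of coding sequence. The order of the other two was not fixed: ATP5G3 held 34.2% and ATP5G1 16.7% per kb of the longest transcript, but 13.9% and 23.3% per kb of the MANE Select transcript.

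In the peripheral stalk, which holds the catalytic head still, ATP5F1 (subunit b) had 4443 normalized counts, ATP5O 2148, ATP5H 2034 and ATP5J 1318. The membrane subunits ATP5L, ATP5I and ATP5J2 had 2482, 1349 and 637. ATP5S, named as a coupling factor of the ATP synthase and now listed under the symbol DMAC2L, had 251. ATP5L2, a copy of ATP5L, had 3.79 and made up at most 0.598% of the pair.

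Medians over the genes at 10 or more gave no stable order of the complexes. They were 2050 normalized counts in complex II, 2186 in III, 1816 in IV and 1991 in V. Per kb of the longest transcript they were 1486, 1084, 1669 and 928, and per kb of coding sequence 3020, 3552, 7588 and 4210. All of these stood above the medians of all protein-coding genes at 10 or more, 202 and 529 on the same scales.

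Leaving aside tissue isoforms and gene copies, ATP5E was the only gene of the 46 below 10. Its gene, now named ATP5F1E, lies on the minus strand at chr20:59025475-59032345 (GRCh38, GENCODE 44), and its coding exons at chr20:59030306-59032251. RefSeq also annotates a readthrough gene, SLMO2-ATP5E, at chr20:59028678-59042846, which joins the upstream gene PRELID3B to ATP5E and contains all of the ATP5E coding exons. A readthrough gene is a transcript unit that runs from 1 gene into the next. PRELID3B had 2732 normalized counts, and the readthrough gene is not analysed here.

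The levels of all genes so joined were therefore compared, a step chosen after the ATP5E value was seen. RefSeq names 151 readthrough genes after their partners. Of 107 downstream partners with a row, 66 (61.7%) were below 10, with a median of 4.09. Of 127 upstream partners, 17 (13.4%) were below 10, with a median of 211. Among the 15274 other protein-coding genes, 21.4% were below 10 and the median was 464. Among the 44 genes of complexes II to V that take part in no readthrough gene, 3 (6.82%) were below 10.

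ATP5J2, the other one of the 46 that takes part, is the upstream partner of ATP5MF-PTCD1 (chr7:99416739-99466167) and had 637 normalized counts, while its downstream partner PTCD1 had 1.30. Among the genes that assemble the complexes or belong to complex I, COX16 is the downstream partner of SYNJ2BP-COX16 and had 10.2, with 665 for SYNJ2BP. NDUFC2 and FMC1 are upstream partners and had 98.3 and 11.0. Their downstream partners, KCTD14 and LUC7L2, had 0.124 and 129.8. FMC1 was thus below its downstream partner, unlike NDUFC2 and ATP5J2. COX16 and FMC1 were the lowest of the assembly factors listed for complexes IV and V. PET117, which takes part in none of these readthrough genes, was close to them at 13.1. How the gene counter treated reads that fall in more than 1 gene is not given in the sources used here, and its part in the ATP5E value was not tested.

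**Figure D3:**
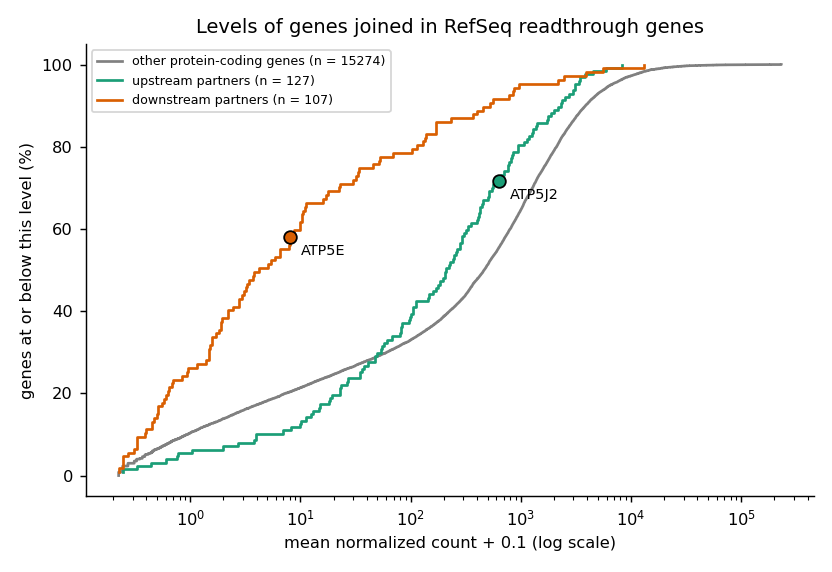
Percent of genes at or below each level (vertical axis) against the mean normalized count plus 0.1 (horizontal log axis), for 107 downstream partners and 127 upstream partners of RefSeq readthrough genes and for 15274 other protein-coding genes. The downstream curve lies far to the left, with ATP5E (7.99) on it, and ATP5J2 (637) lies on the upstream curve.

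Reads that match more than 1 place cannot be assigned by sequence alone. Several genes of complexes II to V have processed copies, and ATP5E is one of them. Its coding sequence was set beside the pseudogene ATP5F1EP2 (chr13:27945260-27945415, plus strand, GRCh38) to show how little separates them. Of 156 bases 6 differ, which are in capitals, and the longest run without a difference is 64 bases. Both are written 5' to 3'.
ATP5F1E: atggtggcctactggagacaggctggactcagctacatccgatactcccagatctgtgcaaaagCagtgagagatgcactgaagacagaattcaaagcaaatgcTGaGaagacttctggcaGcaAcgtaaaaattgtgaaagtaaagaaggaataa
ATP5F1EP2: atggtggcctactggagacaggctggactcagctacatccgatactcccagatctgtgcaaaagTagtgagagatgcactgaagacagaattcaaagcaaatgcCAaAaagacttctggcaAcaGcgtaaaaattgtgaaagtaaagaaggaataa

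UQCRH and UQCRHL are a second such case, shown because both have a row and their levels may share reads. UQCRH lies at chr1:46303698-46316776 on the plus strand, and UQCRHL at chr1:15807169-15809348 on the minus strand. Of the 276 coding bases 4 differ, again in capitals, and the longest identical run is 157 bases.
UQCRH: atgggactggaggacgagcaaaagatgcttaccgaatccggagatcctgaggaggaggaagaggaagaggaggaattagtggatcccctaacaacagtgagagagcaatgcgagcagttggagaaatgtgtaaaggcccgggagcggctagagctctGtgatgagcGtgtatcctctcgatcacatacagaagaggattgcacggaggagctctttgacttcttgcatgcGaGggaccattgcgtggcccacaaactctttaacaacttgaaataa
UQCRHL: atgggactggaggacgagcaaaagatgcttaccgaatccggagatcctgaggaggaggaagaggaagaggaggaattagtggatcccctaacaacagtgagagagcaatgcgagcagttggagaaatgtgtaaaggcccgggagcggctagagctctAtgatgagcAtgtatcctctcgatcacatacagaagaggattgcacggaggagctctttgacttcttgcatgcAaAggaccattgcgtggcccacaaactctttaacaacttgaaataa

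A read within the shared 157 bases cannot be placed in 1 of the 2 genes by its sequence. The 375 normalized counts of UQCRHL and the 5410 of UQCRH are therefore uncertain, and the share of UQCRHL in the pair ranged from 2.14% to 11.9% over the treatments of length.

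To extend this to all 46 genes, each window of 50 or 100 bases of the MANE Select transcript was looked up in the rest of the genome, a search also chosen after the levels were seen. The read length is not given in the sources used here. At 50 bases, 31 genes had at least 1 window with an exact copy elsewhere, 15 had none, and the median was 3.39% of windows. At 100 bases, 12 genes had such a window, and 5 had more than 10% of their windows copied. The genome was searched and not the spliced transcripts, so a match that crosses an exon junction of the other gene was missed and these shares are understated. UQCRHL, for example, had 21.2% at 50 bases and none at 100, although it shares 157 bases in a row with the UQCRH transcript. SDHC was the highest at 50 bases with 61.1% (33.3% at 100). Most of its copied windows lay within the span of RPA1, which had 5476 normalized counts of its own. That span includes introns, and whether the copy lies in RPA1 exons was not analysed here. COX6A1 had 59.8% (39.3%), SDHD 50.3% (16.5%), UQCRH 33.4% (18.0%) and UQCRFS1 22.8% (12.0%). SDHA had 21.3% (2.35%), shared with SDHAP1, SDHAP3 and SDHAP2, which had 200, 68.0 and 127.5 normalized counts. For these genes the level is uncertain to the extent that such reads were dropped or divided.

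The genes below 10 normalized counts differed in their copied share. At 50 bases it was 10.0% for ATP5L2, 9.49% for COX6B2, 1.66% for ATP5E and 0 for COX6A2, and at 100 bases none of the 4 had a copied window. Within the coding sequence alone, the copied share at 50 bases was 14.0% for ATP5E, 7.48% for ATP5L2 and 0 for COX6B2 and COX6A2. The copied windows of COX6B2 thus reached outside its coding sequence. Their copies lay within the spans of many other genes, CUX1 and ROBO1 among them. The part of copied sequence in any level was not tested.

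**Figure D4:**
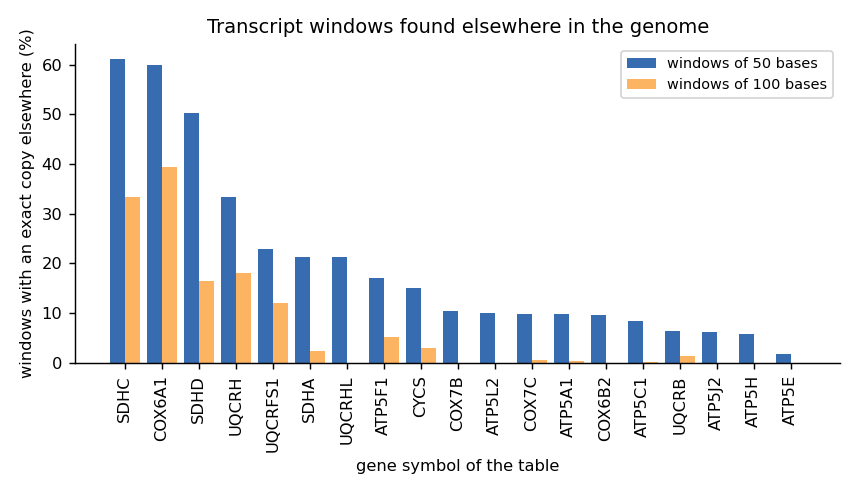
Percent of transcript windows of 50 bases (blue) and 100 bases (orange) with an exact copy elsewhere in GRCh38, for the genes with more than 5% at 50 bases and for ATP5E. SDHC (61.1%), COX6A1 (59.8%) and SDHD (50.3%) are the highest, and ATP5E (1.66%) is the lowest shown.

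The promoters were examined for motifs of factors known to control respiratory genes. RefSeq promoter windows of 300 bases (around the annotated start, GRCh38.p14) were matched for 35 of the 46 genes, which gave 42 windows. NRF1, searched as GCGCANGC on both strands, was present in 45.2% of them, compared with 12.0% of all 35116 windows and 18.8% of the 15342 windows of genes at 10 or more. The ETS motif of GABPA (CCGGAAG) was present in 38.1%, against 10.3% and 16.5%. YY1 (AAGATGGC) was present in 14.3%, against 2.89% and 4.78%, and the motif of the estrogen-related receptors (AAGGTCA) in 14.3%, against 3.92% and 2.63%. By gene, 18 of 35 had the NRF1 motif, 15 the GABPA motif, 6 the estrogen-related receptor motif and 5 the YY1 motif. SDHB had all 4, and 9 genes had none: ATP5E, ATP5G1, COX5A, COX6A2, COX7A2L, COX7B, COX7C, CYC1 and UQCRC2. Levels of these genes ran from 0.545 (COX6A2) to 4056 (COX7C), and only ATP5E and COX6A2 were below 10. COX6B2, also below 10, had the NRF1 motif. A match is a string of letters, and binding was not measured.

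**Figure D5:**
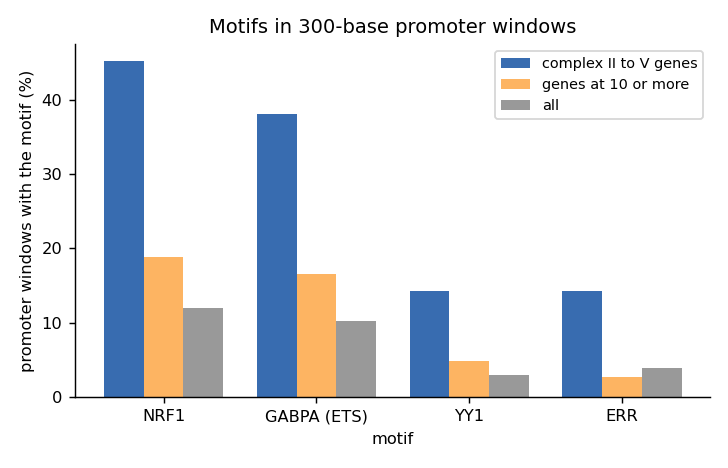
Percent of 300-base promoter windows that hold each motif (vertical axis) for the 42 windows of complex II to V genes (blue), the 15342 windows of genes at 10 or more (orange) and all 35116 windows (grey). The blue bar is the highest for each of the 4 motifs.

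The factors themselves were expressed. YY1 had 3698 normalized counts, TFAM, which maintains and transcribes mitochondrial DNA, 3659, GABPA 1738, ESRRA 666 and NRF1 402. PPARGC1A, a coactivator of these factors, was the lowest of the 9 listed regulators at 70.5.

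The rest of the pathway was also expressed. All 39 complex I genes were at 10 or more, from 32.8 (NDUFA4L2) to 4220 (NDUFS5), with a median of 1143. This list was taken by symbol and holds NDUFA4, which is now placed in complex IV, and NDUFA4L2. All assembly factors listed were at 10 or more, with medians of 236 for the 4 of complex II, 989 for the 6 of complex III, 530 for the 21 of complex IV and 967 for the 5 of complex V. The list for complex V includes ATP5IF1 (1349), which is an inhibitor of the ATP synthase and not an assembly factor. LRPPRC, which stabilises mitochondrial mRNAs, reached 7611 before division by length, the highest of complex IV assembly factors, and TMEM70 reached 2029, the highest of complex V.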

How the data were processed

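RNA-seq was performed on 6 libraries of BT-549/tet-WDR5shRNA cells, 3 per group, each from its own culture. The labels name a column kit for the RNA, and the methods name Trizol. The authors aligned the reads to GRCh38 with STAR and normalized the counts with DESeq2. The methods add a suffix to the genome's name that may stand for an annotation release, and no other annotation is named. The gene counter, the read length and the treatment of reads that match several places are not given in the sources used here. The deposited signal is the mean normalized count of each gene over all libraries, computed by the authors. The other 5 columns hold their comparison of DOX with vehicle (the log2 fold change, its standard error, the Wald statistic, and the raw and adjusted p-values) and are not used here. The planned test needed values of single libraries and was not run, so depth and spread are unknown.

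Symbols were matched to GENCODE 44, 29 of the 46 by their own name and 17 by an older one. Levels were divided by the longest annotated transcript, with coding length (without the stop codon), the MANE Select transcript and no division as alternatives. Genes were taken as expressed from 10 normalized counts upwards. Every gene found by the rule was named, with complex I, assembly factors, regulators and markers as lists. Exact copies were searched on both strands of the primary chromosomes, outside the gene itself, and not in spliced transcripts. Copy and motif searches were tested on simulated data. Python 3.11.15, numpy 2.4.6, pandas 2.3.3 and matplotlib 3.10.9 were used. The genes and lists were chosen with earlier results of these data known.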

Additional observations from a re-analysis of the deposited data

How the results depend on the processing

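No paired analysis was possible because the value used is 1 mean over all libraries. For the same reason the planned tests of DOX against vehicle, with DESeq2 or its size factors, without a filter, with a replicate block or without each culture, were not run. The number of expressed genes was 45 at a minimum of 1 and 42 at a minimum of 50, against 42 at 10. The share of the summed level was 0.456%, and came to 0.4557% over genes at 10 or more and to 0.446% without UQCRHL, ATP5L2, COX7A2L and ATP5S. Without a filter the median of the genes was 1908 in place of 2012. For complexes II, III, IV and V, the medians of 1486, 1084, 1669 and 928 per kb of the longest transcript became 3020, 3552, 7588 and 4210 per kb of coding sequence and 2050, 2186, 1816 and 1991 with no division by length. Per kb of the MANE Select transcript, an alternative chosen after the values were seen, they were 1553, 1278, 3294 and 2214. These scales differ in unit, and it is the order of the complexes, not the size, that can be compared between them. Levels of single libraries, and with them any error on a level, cannot be had from a pooled mean.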
